A study of Mus musculus with 12 samples.

Results

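The alpha and beta tubulin isotypes are the gene families whose products pair into the dimers that build microtubules. Their 10 members were chosen by gene symbol, 5 alpha genes (Tuba1a, Tuba1b, Tuba1c, Tuba4a and Tuba8) and 5 beta genes (Tubb2a, Tubb2b, Tubb4b, Tubb5 and Tubb6), out of 55385 genes in the C2C12 count table. C2C12 is an immortalised mouse myoblast line whose cells leave the cell cycle and fuse into multinucleate myotubes. Total RNA was sequenced from 3 samples of cells differentiated into myotubes for 7 days and from 3 samples of undifferentiated C2C12 cells, the myoblasts. The labels name no other treatment or genotype for either group. Whether the 3 samples of each group were grown apart is not stated, and the p-values therefore reflect sample-to-sample spread that may be only technical. The series also holds 6 small RNA samples of E14TG2a stem cells with and without retinoic acid, whose tables list snoRNA families and no tubulin gene.

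Microtubules are hollow polymers of alpha-beta tubulin dimers. Each tubulin is encoded by several genes, the isotypes, which differ mainly in the acidic carboxy-terminal tail where enzymes add or remove tyrosine, glutamate and glycine. Dividing cells use microtubules radiating from the centrosome and, in mitosis, the spindle, whereas in differentiating muscle cells the nuclear envelope takes over as the main site of nucleation and microtubules run along the long axis of the cell. Free tubulin dimers feed back on the stability of tubulin mRNAs, so the messages of a family are not independent of each other.

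The genes lie in clusters in part. In the genome build GRCm38 (mm10) Tuba1b, Tuba1a and Tuba1c stand close together at chr15:98931429-98934390, chr15:98949847-98953501 and chr15:99029891-99038105. Tubb2a and Tubb2b are neighbours at chr13:34074278-34078008 and chr13:34127008-34130354. The other members are single genes, Tuba4a at chr1:75214972-75221261, Tuba8 at chr6:121210734-121226098, Tubb4b at chr2:25222158-25224702 and Tubb5 at chr17:35833920-35838301, and Tubb6, placed where its values are given. Isotype genes have near-identical coding sequences and processed pseudogenes, and the sources used here do not say how reads matching several of them were counted, which leaves counts of single isotypes uncertain to that extent.

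The bases just upstream of the start sites are shown for 3 isotypes that were lower in myotubes (Tubb4b, Tubb5 and Tuba1b) and for 1 that was not called (Tubb2a), because these promoters differ in their simple motifs. Each run is the 250 bases before the RefSeq start in GRCm38.p6, read 5′ to 3′ on the gene's strand, and capitals mark CCAAT in either orientation (CCAAT or ATTGG) and TATAAA (or TTTATA). All 4 genes lie on the minus strand, at chr2:25224703-25224952 (Tubb4b), chr17:35838302-35838551 (Tubb5), chr15:98934391-98934640 (Tuba1b) and chr13:34078009-34078258 (Tubb2a).
Tubb4b: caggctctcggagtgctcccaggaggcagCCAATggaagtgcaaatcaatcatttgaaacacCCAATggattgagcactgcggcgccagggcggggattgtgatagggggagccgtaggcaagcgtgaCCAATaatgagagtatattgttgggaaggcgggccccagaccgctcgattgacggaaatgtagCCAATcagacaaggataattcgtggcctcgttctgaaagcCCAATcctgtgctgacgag
Tubb5: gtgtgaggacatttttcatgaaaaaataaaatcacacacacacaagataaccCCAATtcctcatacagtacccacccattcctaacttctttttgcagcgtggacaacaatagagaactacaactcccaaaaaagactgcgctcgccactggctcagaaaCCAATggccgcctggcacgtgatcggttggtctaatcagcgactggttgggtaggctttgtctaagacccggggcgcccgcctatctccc
Tuba1b: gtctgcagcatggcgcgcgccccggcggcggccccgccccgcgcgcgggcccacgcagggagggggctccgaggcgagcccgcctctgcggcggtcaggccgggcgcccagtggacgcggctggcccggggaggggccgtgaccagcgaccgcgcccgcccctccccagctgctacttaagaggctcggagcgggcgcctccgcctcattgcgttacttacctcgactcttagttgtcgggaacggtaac
Tubb2a: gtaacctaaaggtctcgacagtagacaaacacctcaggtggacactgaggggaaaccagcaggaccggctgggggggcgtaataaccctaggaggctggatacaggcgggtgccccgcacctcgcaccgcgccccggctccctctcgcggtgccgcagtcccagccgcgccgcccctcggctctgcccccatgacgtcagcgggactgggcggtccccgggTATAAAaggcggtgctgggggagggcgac
CCAAT is the core of the site bound by the factor NF-Y, which is common upstream of genes of cell division, and TATAAA is a TATA box. The Tubb4b window held 5 copies of CCAAT, at 221, 188, 122, 59 and 19 bases before the start, and the Tubb5 window held 2, at 198 and 90 bases. The Tuba1b window held neither motif, and the Tubb2a window held 1 TATAAA at 29 bases. RefSeq windows were used for 8 of the 10 members. The window of Tuba4a, which was not called, lies at chr1:75219295-75219544, inside the gene span given above. Tubb2b had no matched window, and Tubb6 was left out of the motif search, so the counts below do not cover it. CCAAT stood in 3 of the 4 windows of members that were lower (Tubb4b, Tubb5 and Tuba1c) and in 1 of the 3 windows of members that were not called (Tuba1a), against 33.8% of 32851 promoter windows of the same length, and TATAAA stood in 12.4% of all windows. E-boxes (CANNTG), the sites of the myogenic factors, were found in all 8 windows and in 66.2% of all windows, and so were present upstream of members that fell and of members that were not called.

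Levels are given as RPKM, here the counts per kilobase of the deposited gene length, relative to library size, with libraries scaled by TMM (trimmed mean of M values), and as CPM where length was not divided out. Library totals ran from 18335785 to 31119511 counts in myotubes and from 22200097 to 54083215 in myoblasts. All 8 myotube markers, among them Myog, Acta1, Myh3 and Ttn, were higher in myotubes, and all 8 proliferation markers, among them Mki67, Top2a and Ccnb1, were lower. Myotube replicate 1 stood apart from replicates 2 and 3. Its 8 proliferation markers summed to 1087 CPM, against 294 and 244 CPM in myotube replicates 2 and 3 and 2729 to 2794 CPM in myoblasts. Its myotube markers summed to 9623 CPM, against 20183 and 22913 CPM in replicates 2 and 3 and 120 to 255 CPM in myoblasts. The 6 markers of quiescent satellite or reserve cells summed to 653 CPM there, mostly from Cd34, against 180 and 190 CPM in the other myotube libraries and 144 to 462 CPM in myoblasts, with Calcr at 0 counts in every library. Cd34 was at 618, 88.6 and 106 CPM in the myotube libraries and at 429, 96.8 and 74.7 CPM in the myoblast libraries. Pax7, Spry1, Myf5 and Hey1 went the other way, each lower in myotube replicate 1 than in myotube replicates 2 and 3 (Pax7 at 1.74, 15.6 and 16.4 CPM). Fold changes of several isotypes are given with and without this library.

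Of the 9 members that could be tested, 4 fell in myotubes (Tuba1b, Tuba1c, Tubb4b and Tubb5) and 0 rose, at a Benjamini-Hochberg adjusted p under 0.05 in edgeR's quasi-likelihood test over all genes. At an unadjusted p under 0.05, and with DESeq2, the counts were likewise 4 lower and 0 higher. Over all 15932 genes tested, 40.1% were called in either direction, 19.6% lower and 20.5% higher. The median log2 fold change was -0.43 over the 9 members and 0.06 over all genes tested. Of the 9 members, 4 had groups that did not overlap, against 55.9% of all genes. In this bulk RNA, fewer cells of a type and less RNA per cell cannot be told apart.

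**Figure D1:**
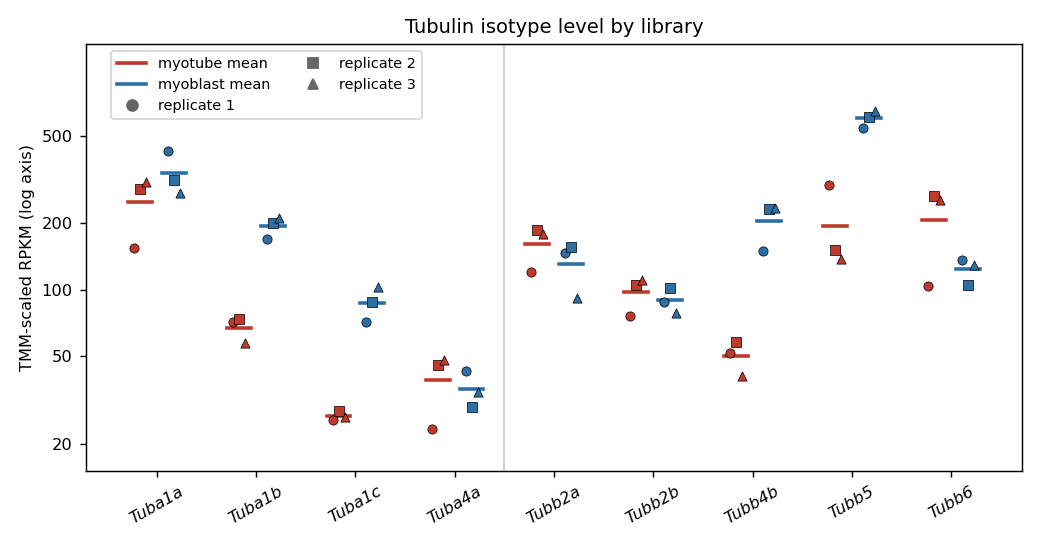
TMM-scaled RPKM (log axis) of the 9 tested isotypes in each library, myotubes in red left of myoblasts in blue, with a horizontal line at the mean of 3 libraries and a symbol for each replicate number. Tuba1b, Tuba1c, Tubb4b and Tubb5 are lower in every myotube library than in any myoblast library, and in myotube replicate 1 (circles) Tubb5 is higher, and Tubb6 lower, than in the other myotube libraries.

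Among the alpha genes, Tuba1a was the most abundant isotype by length-scaled level in both groups. Tuba1a, the isotype best known from developing neurons, stood at 155, 286 and 309 RPKM in the myotube libraries, against 424, 313 and 274 RPKM in the myoblast libraries. The groups overlapped, with myotube replicate 1 the lowest of all 6 libraries. The change was not called (log2 fold change -0.43 ± 0.30, SE, adjusted p = 0.280), nor was it without myotube replicate 1 (-0.21, adjusted p = 0.496).

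Tuba1b, a broadly expressed alpha isotype, was at 71.2, 73.4 and 57.1 RPKM in myotubes and at 170, 200 and 212 RPKM in myoblasts. Every myotube library lay below every myoblast library, and the gene was 2.89-fold lower in myotubes (log2 fold change -1.53 ± 0.19, SE, adjusted p = 0.000717). Tuba1c, from the same cluster and also broadly expressed, was at 25.6, 28.1 and 26.4 RPKM in myotubes and at 71.0, 88.2 and 103 RPKM in myoblasts. Its 3 myotube libraries were closely alike and far below the myoblasts, 3.26-fold lower (log2 fold change -1.71 ± 0.19, SE, adjusted p = 0.000436).

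Tuba4a, an isotype whose encoded chain lacks the terminal tyrosine of other alpha tubulins, was at 23.4, 45.4 and 48.1 RPKM in myotubes and at 42.6, 29.4 and 34.3 RPKM in myoblasts. Myotube replicate 1 was again the lowest library and the other myotube libraries the highest, so the groups overlapped and no change was called (log2 fold change 0.14 ± 0.29, SE, adjusted p = 0.723). Without myotube replicate 1 the log2 fold change was 0.37 (adjusted p = 0.160), and the sign turned without myotube replicate 2 (-0.03) or 3 (-0.05). Tuba8, an isotype known from striated muscle, testis and brain, had 0 counts in all 3 myotube libraries, against 2, 0 and 0 counts in myoblasts, and did not pass the filter on low counts. A count of 0 allows up to 0.116, 0.0978 and 0.174 CPM in myotube replicates 1, 2 and 3, so Tuba8 was not detectable in myotubes at this depth. These limits cover counting error only.

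Among the beta genes, Tubb5, the main beta isotype of most proliferating cells, was the most abundant in myoblasts. It stood at 297, 151 and 138 RPKM in myotubes, against 540, 607 and 646 RPKM in myoblasts. The groups did not overlap, and myotube replicate 1 was the highest of the myotube libraries. Tubb5 was 3.06-fold lower in myotubes (log2 fold change -1.61 ± 0.33, SE, adjusted p = 0.00651), and without myotube replicate 1 the log2 fold change was -2.07 (adjusted p = 0.000136).

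Tubb4b, a beta isotype of cilia and of many dividing cells, had the lowest log2 fold change of the 9 tested members. It was at 51.4, 58.2 and 40.4 RPKM in myotubes and at 149, 233 and 234 RPKM in myoblasts, 4.11-fold lower in myotubes (log2 fold change -2.04 ± 0.25, SE, adjusted p = 0.000665). Here myotube replicate 1 lay between the other myotube libraries, and Tuba1c and Tuba1b were likewise as low in it as in the other myotubes. The part of its raised proliferation markers in the levels of these isotypes was not tested.

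Tubb6 (chr18:67390731-67402749), a beta isotype known from mouse muscle to be raised during differentiation and regeneration, was at 104, 265 and 254 RPKM in myotubes and at 137, 105 and 130 RPKM in myoblasts. Myotube replicates 2 and 3 were the highest libraries and myotube replicate 1 the lowest. The change was not called over 6 libraries (log2 fold change 0.74 ± 0.34, SE, adjusted p = 0.117). Without myotube replicate 1 Tubb6 was called higher (1.04, adjusted p = 0.00268). That library also had the highest proliferation markers and the lowest muscle markers of the 3 myotube libraries, and their part in the Tubb6 level was not tested.

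Tubb2a, one of a neighbouring gene pair with high levels in neurons, was at 121, 186 and 178 RPKM in myotubes and at 146, 155 and 91.4 RPKM in myoblasts. Tubb2b, the other gene of that pair, was at 75.8, 105 and 111 RPKM in myotubes and at 88.2, 102 and 78.7 RPKM in myoblasts. In both genes myotube replicates 2 and 3 were the highest libraries, but the groups overlapped. Neither was called, with log2 fold changes of 0.30 ± 0.26 for Tubb2a (adjusted p = 0.378) and 0.12 ± 0.21 for Tubb2b (adjusted p = 0.667), both with SE. Scaling by library size in place of TMM shifted the median of all genes by -0.13 and put Tubb2b at -0.01.

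**Figure D2:**
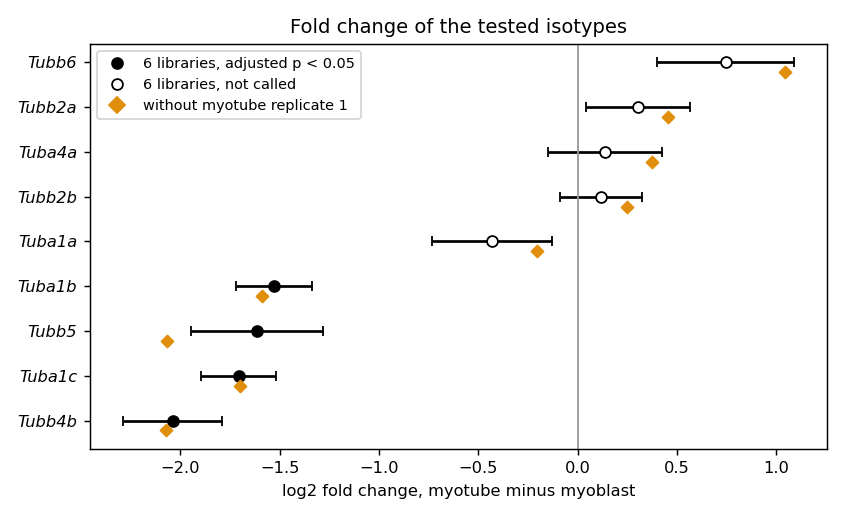
Log2 fold change, myotube minus myoblast, of the 9 tested isotypes as circles with the SE, filled where the adjusted p was under 0.05, and the value without myotube replicate 1 as orange diamonds. Tuba1b, Tubb5, Tuba1c and Tubb4b lie between -2.04 and -1.53, and leaving out that library moves Tubb5 to -2.07 and Tubb6 to 1.04.

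The summed message of the 10 members was also lower in myotubes. Tubb3, given below, is in neither the beta sum nor the ratio of beta to alpha. The alpha members summed to 383 ± 93.6 RPKM in myotubes and 654 ± 46.9 RPKM in myoblasts, and the beta members to 712 ± 58.3 RPKM in myotubes and 1147 ± 76.2 RPKM in myoblasts (SD, n = 3 each). Neither sum overlapped between groups. The 10 members took 0.242% ± 0.0250 of all counts in myotubes and 0.462% ± 0.0233 in myoblasts (SD, n = 3 each), a share that does not depend on TMM. The ratio of beta to alpha was 2.36, 1.77 and 1.64 in the myotube libraries, against 1.498, 1.91 and 1.89 in the myoblast libraries, so the 2 families kept overlapping ratios.

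The isotype shares give the make-up of the listed members of each family within a library and do not depend on library scaling. They leave out Tubb3, a further beta isotype, at 138, 150 and 180 CPM in myoblasts and 10.1, 37.1 and 30.8 CPM in myotubes. With Tubb3 counted, each beta share would be smaller. In the alpha family Tuba1a made up 56.3%, 66.0% and 70.1% in myotubes, against 59.9%, 49.7% and 44.0% in myoblasts. The groups overlapped through replicate 1, since the share was lowest there among myotubes and highest there among myoblasts. Tuba1b made up 18.6% ± 6.63 in myotubes and 29.9% ± 5.20 in myoblasts, also with overlap. Tuba1c made up 7.27% ± 1.80 in myotubes and 13.5% ± 3.24 in myoblasts, and Tuba4a 9.98% ± 1.28 in myotubes and 5.40% ± 0.684 in myoblasts (SD, n = 3 each), both without overlap.

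In the beta family the shares of all 5 listed members did not overlap between groups. Tubb5 made up 45.8%, 19.8% and 19.1% in myotubes, against 50.9%, 50.5% and 54.7% in myoblasts. Tubb6 made up 16.0%, 34.6% and 35.2% in myotubes, against 12.9%, 8.73% and 11.01% in myoblasts. In myotube replicates 2 and 3 Tubb6 was the leading beta isotype and Tubb5 came behind it and Tubb2a, whereas in myotube replicate 1 Tubb5 still led. Part of this order depends on the division by gene length. In CPM Tubb6 also led in myotube replicates 2 and 3 (645 and 620 CPM), but Tubb5 (503 and 458 CPM) was above Tubb2a (299 and 287 CPM), and the mean share of counts in myotubes was 37.4% for Tubb5 and 28.9% for Tubb6. Tubb2a made up 22.5% ± 3.41 in myotubes and 11.5% ± 3.27 in myoblasts, and Tubb2b 13.6% ± 1.86 in myotubes and 7.82% ± 1.004 in myoblasts. Tubb4b made up 7.04% ± 1.26 in myotubes and 17.8% ± 3.21 in myoblasts (SD, n = 3 each). A share without overlap reached an exact two-sided permutation p of 0.1, the smallest that 3 against 3 libraries allow, so no share could pass 0.05. Shares within a family sum to a fixed total, and the larger shares of Tubb2a and Tubb2b stood beside levels that were not called different.

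**Figure D3:**
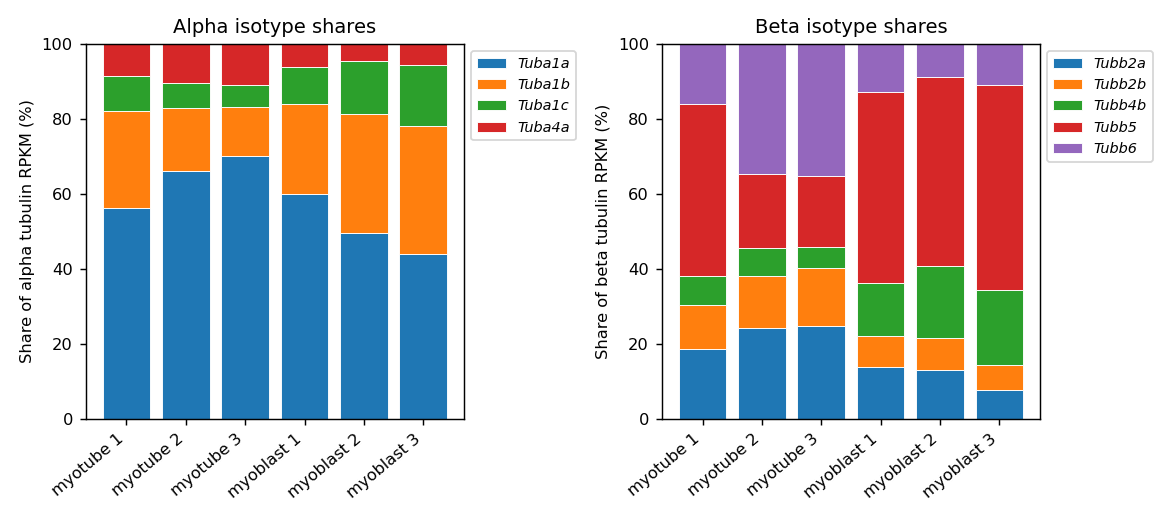
Stacked bars of the percentage of length-scaled alpha (left) and beta (right) tubulin level taken by each isotype in the 3 myotube and 3 myoblast libraries; Tuba8, at or near 0, is left out. Tubb5 takes at least 50.5% of the level of the listed beta members, which leave out Tubb3, in each myoblast library. Tubb6 takes 34.6% and 35.2% in myotube replicates 2 and 3.

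The ratio of Tubb6 to Tubb5 by RPKM put the change of the beta family in 1 value. It was 0.349, 1.75 and 1.85 in the myotube libraries, against 0.254, 0.173 and 0.201 in the myoblast libraries. By mean RPKM the order in myotubes was Tuba1a, Tubb6, Tubb5, Tubb2a, Tubb2b, Tuba1b, Tubb4b, Tuba4a, Tuba1c and Tuba8. In that order the first 4 genes overlapped with their neighbours, while Tubb2a and Tubb2b did not overlap with each other, nor Tubb2b with Tuba1b. In myoblasts the order was Tubb5, Tuba1a, Tubb4b, Tuba1b, Tubb2a, Tubb6, Tubb2b, Tuba1c, Tuba4a and Tuba8. There the overlapping neighbours were Tubb4b with Tuba1b, Tubb2a with Tubb6, and Tubb2b with Tuba1c.

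Likeness of pattern between members was measured as the root mean square difference of mean-centred log2 CPM over the 6 libraries, as a description. Of all member pairs, Tuba1b and Tuba1c were nearest (0.149), followed by Tubb2a and Tubb2b (0.193). Both pairs may share reads through their similar sequence. Tuba1a, which lies between Tuba1b and Tuba1c on the chromosome, had Tuba4a as its nearest member (0.304) and was farther from Tuba1b (0.712) and Tuba1c (0.756). Among 6157 other genes averaging 5 or more in log2 CPM, those nearest to Tuba1a were Vash2, which encodes a tubulin-detyrosinating enzyme (0.0772), Gtf2f1, a subunit of the general transcription factor TFIIF (0.122), and Ap3d1, an adaptor complex subunit (0.130). Those nearest to Tubb5 were the non-coding gene Brip1os (0.0505), Vim, which encodes the intermediate filament protein vimentin (0.0600), and Ncapd3, a condensin subunit (0.0671).

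**Figure D4:**
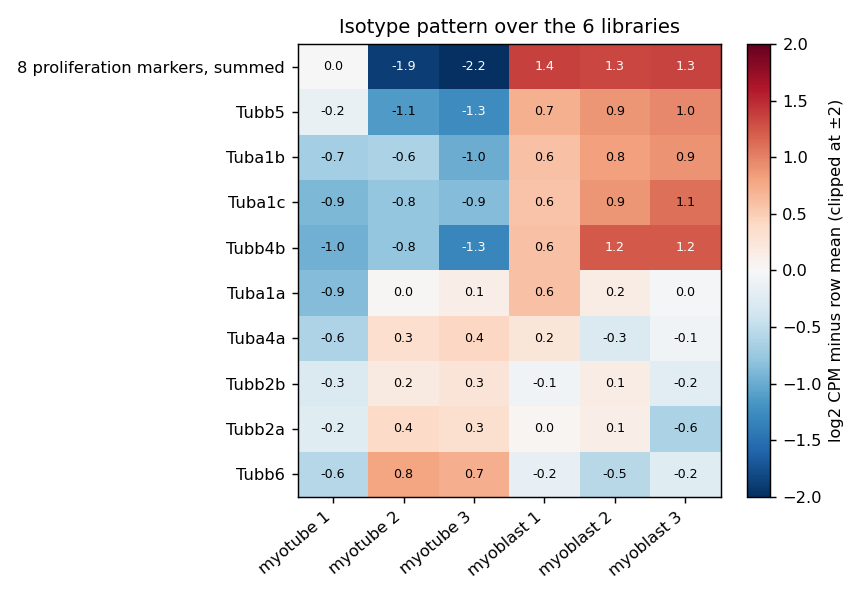
Log2 CPM minus the mean of the row in each library for the sum of 8 proliferation markers (top) and the 9 tested isotypes, blue for low and red for high, clipped at 2 in colour only. In myotube replicate 1 the marker sum and Tubb5 sit near their row means, while Tuba1b, Tuba1c and Tubb4b are as low as in the other myotube libraries and Tubb6 is lower than in them.

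Other tubulin genes were followed from a fixed list. Of 10 listed, 4 could be tested, 3 fell (Tubb3, Tubg1 and Tube1) and Tubd1 was not called, beside 19.6% lower over all genes tested. Tubb3, the beta isotype used as a neuron marker, was at 10.1, 37.1 and 30.8 CPM in myotubes and at 138, 150 and 180 CPM in myoblasts (log2 fold change -2.59 ± 0.44, SE, adjusted p = 0.00303). Of the other neuron markers, Rbfox3, Snap25 and Elavl4 had 0 counts in all 6 libraries and Syt1 had at most 5. Map2, the remaining one, had 320, 227 and 171 counts in myotubes and 703, 269 and 124 counts in myoblasts, and was not called (log2 fold change 0.29). Tubg1, the gamma tubulin that nucleates microtubules, was at 20.8 ± 2.46 CPM in myotubes and 65.6 ± 6.18 CPM in myoblasts (SD, n = 3 each; log2 fold change -1.65 ± 0.17, SE, adjusted p = 0.000363). Tube1, the epsilon tubulin of centrioles, changed by -1.66 ± 0.43 (SE, adjusted p = 0.0165), or by -2.31 without myotube replicate 1. Tubb1, Tubal3 and Tuba3a had 0 counts everywhere. Tuba3b, Tubb4a and Tubg2 had too few counts to test, with at most 2, 27 and 16 counts in a library.

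Genes that nucleate microtubules and fold tubulin were taken next. Their counts stand beside 19.6% lower and 20.5% higher over all genes tested. Of 9 tested partners of the gamma-tubulin ring complex, 4 fell and 0 rose by edgeR, at an unadjusted p under 0.05 and by DESeq2 alike (median log2 fold change -0.27), with Nedd1, its adaptor at the centrosome, at -1.12 ± 0.21 (SE, adjusted p = 0.00434) and the core subunit Tubgcp2 at -0.98 ± 0.20 (SE, adjusted p = 0.00659). The other 2 were Tubgcp3 and Tubgcp6, and Tubgcp6 lost its call without myotube replicate 2 or 3 or myoblast replicate 2 (adjusted p of 0.0605, 0.0827 and 0.0503). Of 14 genes of the chaperonin CCT and of prefoldin, which fold newly made tubulin and actin, 10 fell and 1 rose (median -0.85). All 8 tested CCT subunit genes fell. Cct2 was at 312 ± 22.2 CPM in myotubes and 658 ± 116 CPM in myoblasts, and Cct5 at 320 ± 26.6 CPM in myotubes and 651 ± 88.3 CPM in myoblasts (SD, n = 3 each). Cct4 lost its call without myotube replicate 3 or myoblast replicate 2, and Cct8 without either of these or myoblast replicate 3, with adjusted p of up to 0.0854. The prefoldin gene Pfdn5 was higher (0.52 ± 0.17, SE, adjusted p = 0.0423), a call lost when any single library was left out (adjusted p of 0.0639 to 0.154), with DESeq2 (0.0622), with scaling by library size (0.136) and without a filter on low counts (0.0939). Of 7 tubulin cofactors, which assemble and recycle the dimer, 0 were called by edgeR and 0 by DESeq2, and 1, Arl2, was higher at an unadjusted p under 0.05 (median -0.03).

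Calls among enzymes that modify tubulin went in both directions, as they did over all genes tested (20.5% higher and 19.6% lower). Of 4 genes of tyrosine removal and re-addition 1 rose (median -0.15), Svbp, the partner of the vasohibin detyrosinases, at 27.7 ± 3.53 CPM in myotubes and 14.8 ± 2.05 CPM in myoblasts (SD, n = 3 each; log2 fold change 0.91 ± 0.19, SE, adjusted p = 0.00722). Its partner genes Vash1 and Vash2 were not called (-0.13 ± 0.36 and -0.50 ± 0.26, SE), nor was Ttl, the ligase that adds tyrosine back (-0.18 ± 0.15, SE). Of 3 genes of tubulin acetylation (median 0.68), the deacetylase Hdac6 fell (-0.75 ± 0.18, SE, adjusted p = 0.0121) and the deacetylase Sirt2 rose (0.83 ± 0.24, SE, adjusted p = 0.0245), while the acetyltransferase Atat1 was not called (0.68 ± 0.26, SE, adjusted p = 0.0723). Of 10 genes of glutamylation and glycylation 3 rose and 1 fell (median -0.02). The ligases Ttll5 and Ttll13 and the deglutamylase Agbl3 changed by 0.84 ± 0.22, 1.55 ± 0.48 and 0.89 ± 0.25, and the ligase Ttll4 by -0.87 ± 0.23 (SE). Ttll13 had few reads, with 19, 13 and 8 counts in myotubes and 12, 8 and 3 counts in myoblasts. Several of the enzyme calls were lost with 5 libraries, with folds in the same direction. Hdac6 was lost without myotube replicate 3 (adjusted p = 0.0560) and Ttll4 without myoblast replicate 3 (0.0637). Ttll5, Agbl3 and Sirt2 were lost without myotube replicate 2 or 3 or myoblast replicate 2 or 3 (adjusted p of 0.0560 to 0.103), and Ttll13 without any single library (0.0530 to 0.1204) and with the replicate block (0.0504). Scaling by library size also ended the calls of Ttll13 (0.0547), Sirt2 (0.0629) and Agbl3 (0.0590), testing without a filter on low counts those of Ttll13 (0.110) and Agbl3 (0.0803), and DESeq2 that of Ttll13 (0.0828). The log2 fold changes with 1 library left out stayed between 0.85 and 0.93 for Agbl3, 0.66 and 1.05 for Sirt2, and 1.23 and 1.67 for Ttll13.

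Calls among genes of microtubule binding and organisation were split, as were those over all genes tested, with 20.5% higher and 19.6% lower. Of 11 tested structural microtubule-associated proteins 4 rose and 1 fell (median 0.14). Map4, a ubiquitous stabilising protein with a muscle isoform, was at 375, 616 and 618 CPM in myotubes and at 252, 216 and 262 CPM in myoblasts (log2 fold change 1.14 ± 0.24, SE, adjusted p = 0.00734). Mtus1 changed by 2.90 ± 0.46 and Mapt, which encodes tau, by 4.86 ± 0.67 (SE). Mapt was at 3.79, 20.2 and 19.9 CPM in myotubes and at 0.401, 0.560 and 0.563 CPM in myoblasts. Mtus2 had 15, 69 and 68 counts in myotubes and 0, 4 and 0 in myoblasts, and its log2 fold change of 5.90 was 9.11 when myoblast replicate 2 was left out. Map1s fell (-0.79 ± 0.26, SE, adjusted p = 0.0405), a call lost without myotube replicate 1 or 3 or myoblast replicate 2 or 3 (adjusted p of 0.0566 to 0.131). Of 8 genes of stathmins and severing enzymes 5 fell and 0 rose by edgeR, at an unadjusted p under 0.05 and by DESeq2 alike (median -1.01), among them Stmn1, which binds free dimers, at -2.65 ± 0.46 (-3.30 without myotube replicate 1), and Fignl1 at -3.29 ± 0.33 (SE). Stmn2 and Stmn4, which also encode stathmins, fell as well.

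Of 9 plus-end proteins 2 rose and 3 fell (median -0.22). The end-binding gene Mapre3 was at 27.7 ± 8.06 CPM in myotubes and 8.90 ± 1.98 CPM in myoblasts, while its paralog Mapre1 was at 156 ± 7.45 CPM in myotubes and 260 ± 50.6 CPM in myoblasts (SD, n = 3 each), with log2 fold changes of 1.63 ± 0.28 and -0.74 ± 0.19 (SE). Mapre2 fell as well (-1.18 ± 0.21, SE), Clip1 rose (0.78 ± 0.16, SE) and the polymerase gene Ckap5 fell (-0.76 ± 0.21, SE). The calls of Mapre1 and Ckap5 were lost without myotube replicate 3 or myoblast replicate 2 or 3, and that of Ckap5 also without myotube replicate 2 (adjusted p of 0.0592 to 0.0822). Of 11 genes of the centrosome and of organising sites at the nuclear envelope 3 rose and 5 fell (median -0.68). The risers were Akap6, at 163, 311 and 332 CPM in myotubes and at 23.2, 27.5 and 26.02 CPM in myoblasts (3.39 ± 0.29, SE, adjusted p = 0.000184), Syne1, which encodes a nesprin of the nuclear envelope (1.70 ± 0.20, SE), and Akap9, a scaffold of the Golgi and centrosome (1.08 ± 0.17, SE). The centrosomal genes Pcnt (-0.78 ± 0.16, SE), Cep250 (-0.94 ± 0.20, SE), Nin, Cep135 and Cep192 fell. Nin lost its call without myotube replicate 3 (adjusted p = 0.0588), Cep135 without myotube or myoblast replicate 2 or 3 and with the replicate block (0.0504 to 0.1201), and Cep192 in all but 1 of the runs without a library (0.0508 to 0.0624). Of 2 genes of tubulin mRNA autoregulation, Scaper, which recruits the deadenylase complex, rose (1.02 ± 0.25, SE, adjusted p = 0.0137, or 0.0512 without myoblast replicate 3), and Ttc5, which recognises the nascent tubulin chain, was not called (0.14 ± 0.20, SE). Over these 12 lists 16 of 92 tested genes were higher and 33 lower, beside 20.5% and 19.6% of all genes tested. Many of the same genes are also used in mitosis, whose markers were lower in myotubes as given above. The part of mitosis in these counts was not tested.

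**Figure D5:**
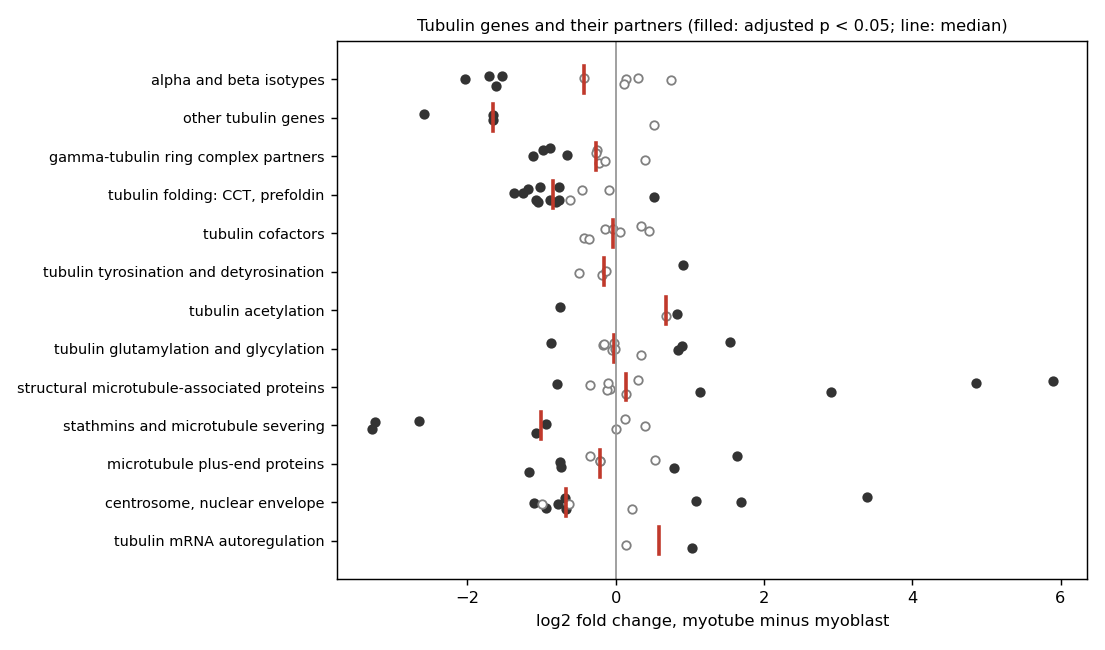
Log2 fold change, myotube minus myoblast, of each tested gene of the isotypes and of 12 lists of tubulin partners, filled where the adjusted p was under 0.05, with a red line at the median of the list. The lists of tubulin folding and of stathmins and severing have medians of -0.85 and -1.01, and the genes farthest to the right are Mtus2, Mapt and Akap6.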

How the data were processed

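Raw read counts per gene were deposited by the authors in 1 table with gene symbols, gene lengths and 6 C2C12 columns, which the column names tie to the labels. The build mm10 and the tools featureCounts 1.5.1, STAR 2.5.1b, DESeq2 1.18.1, Salmon 0.12.0 and bcl2fastq are listed, with no role, per the submitters' processing notes; per the labels' protocols the libraries were stranded total RNA depleted of ribosomal RNA, and strand and multi-mapping settings are not given in the sources used here. Here the counts were scaled by TMM, filtered with filterByExpr and tested as myotube minus myoblast with edgeR 4.0.16 (R 4.3.3; robust quasi-likelihood, Benjamini-Hochberg adjustment over 15932 genes, call at 0.05), on a script tested on simulated data; DESeq2 1.42.0 was an alternative. RPKM used the deposited gene length. Members and lists were chosen with earlier results of these data known. All members were named, and of each list up to 2 called genes per direction with the highest counts per kilobase, plus the 3 genes nearest in pattern to the most abundant alpha and beta isotype; further genes were chosen after their values were seen. No 2 replicates agreed within sampling noise (chi-square per degree of freedom at least 104). Same-numbered myotube and myoblast libraries deviated together (correlations 0.232, 0.189 and 0.170 over 15932 genes), so the number was also fitted as a block, although myotube 2 and myoblast 3 correlated more (0.358). The small RNA tables were not used. Some single genes are not reported here.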

Additional observations from a re-analysis of the deposited data

How the results depend on the processing

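The 4 isotypes that fell were called in each of the 12 alternatives: scaling by DESeq2's size factors or library size, DESeq2, no filter, a mean count of at least 50, the replicate block, and each library left out. No direction of a called result turned. The count of isotypes called higher was 0 throughout, except that leaving out 1 library each gave 0 to 1, the 1 being Tubb6 without myotube replicate 1. With the replicate block 0 isotypes were higher and 4 lower, and Cep135 and Ttll13 lost their calls (adjusted p = 0.0504 each in edgeR). Partner genes called higher, 16 in all, numbered 10 to 16 with 1 library left out, the lowest without myoblast replicate 3, and those lower, 33 in all, numbered 23 to 35. Of 49 called partner genes, 17 lost their call in at least 1 alternative. Over all genes the calls numbered 2430 to 3599 higher and 2127 to 3517 lower with 1 library left out. Library size scaling moved the median of all genes by -0.13 on the log2 scale. Share differences of Tuba1a ran from 9.37 to 17.3 percentage points and of Tubb5 from -32.6 to -19.3 with 1 library left out. With counts not divided by length, the share difference was 8.05 points for Tuba4a and -7.60 for Tubb4b. The mean beta share of counts in myotubes was 37.4% for Tubb5, 28.9% for Tubb6 and 14.9% for Tubb2a. The length-scaled means were 28.2% for Tubb5 and 28.6% for Tubb6. In CPM Tubb5 stood above Tubb6 in myotube replicate 1 (989 and 253 CPM), while Tubb6 led in myotube replicates 2 and 3. Depth limits Tuba8, whose 0 counts only bound its level.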
